A study of Homo sapiens with 3 samples.

Results

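Regions bound by ARID1B at an intermediate distance from genes, more than 1 kb and at most 10 kb from the nearest end of a protein-coding gene, were taken from ARID1B chromatin immunoprecipitation sequencing (ChIP-seq) of HEK293FRT cells. Overlapping peaks of the replicates (at least 1 bp) were merged, and 301 of 2289 merged regions on chromosomes 1 to 22 and X (13.1%) met this rule. A gene end was either annotated end, start or stop, of a protein-coding gene on the human build hg38. HEK293FRT is an established human embryonic kidney line derived from HEK293, and its genotype and treatment are both labelled none. The series held 2 ARID1B replicates and 1 input sample, and the lists of the ARID1B replicates hold 1792 and 1820 peaks. Separate cultures are not stated for the replicates, so p-values and differences between them may be technical, and the antibody is not named in the sources used here. Peak lists carry no expression, so the cell type label could not be checked against marker genes. Depth is unknown, because no read counts accompany the peaks.

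ARID1B is the DNA-binding subunit that, in alternation with ARID1A, defines the canonical BAF form of the SWI/SNF chromatin remodelling complex. The complex uses ATP to slide or evict nucleosomes and is known for opening enhancers and promoters. Sequence a few kilobases from a gene end can hold the first introns, upstream enhancers, alternative promoters and the stretch where transcription terminates.

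Of the 301 regions, 160 had a peak in both replicates, 57 in replicate 1 alone and 84 in replicate 2 alone. The members covered 98.9 kb in all, with a median width of 286 bp and a range of 191 to 1287 bp. Their distance to the nearest gene end had a median of 4606 bp and quartiles of 2651 and 7083 bp. They lay nearest to 275 protein-coding genes, 1.39% of the 19821 on these chromosomes, and 153 of these genes (0.772%) had a region found in both replicates. For 69 regions (22.9%) more than 1 protein-coding gene had an end within 10 kb. At the lower limit of the rule, the nearest members lay 1040 bp from an end of KLF6 and 1064 bp from IGBP1C, and the nearest regions left out lay 973 bp from HSD17B13 and 951 bp from HOXA9. At the upper limit, regions 9999 bp from KDM4C and 9973 bp from DDX47 were members, and regions 10041 bp from YAP1 and 10149 bp from NOTCH2NLA were not.

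Some members lay at a second kind of gene start. A table of promoter windows from RefSeq (GRCh38.p14, 250 bases before to 50 after each start listed) held alternative starts that lie inside genes, and starts of non-coding genes. Of the 301 members, 20 (6.64%, exact Clopper-Pearson 95% interval 4.11 to 10.1) overlapped such a window, against 10% of all merged regions. The rule leaves out regions at most 1 kb from a gene end, of which 59.1% overlapped a window. The lower share of members than of all regions thus follows from the rule. Beyond 10 kb the share was 1.84%. A start of a protein-coding gene was involved in 15 of them, and starts of long non-coding RNA genes alone in the other 5. The highest-scoring member of all was at such a start, the HNRNPL region. Printed here are the 250 bases before the start at each of the 8 members found in both replicates that overlapped a window, because these are the places where letters can be set beside a repeated region. A ninth window, of LOC105376326, faces the TRAF2 window on the other strand and largely repeats its bases, so it is not printed. Capitals mark GGGCGG or its complement CCGCCC, the GC box bound by SP factors.

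HNRNPL, chr19:38849987-38850236, minus strand: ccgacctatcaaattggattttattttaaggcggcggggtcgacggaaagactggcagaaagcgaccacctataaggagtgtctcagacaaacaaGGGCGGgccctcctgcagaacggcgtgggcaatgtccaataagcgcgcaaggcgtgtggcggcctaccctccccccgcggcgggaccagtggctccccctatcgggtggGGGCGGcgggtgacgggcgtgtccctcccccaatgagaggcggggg
LINC00886, chr3:156817063-156817312, minus strand: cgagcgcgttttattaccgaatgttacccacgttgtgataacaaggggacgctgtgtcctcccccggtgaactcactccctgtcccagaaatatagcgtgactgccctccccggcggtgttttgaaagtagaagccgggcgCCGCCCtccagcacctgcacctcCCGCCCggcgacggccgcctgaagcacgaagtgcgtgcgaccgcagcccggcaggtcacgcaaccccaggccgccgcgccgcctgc
SIN3A, chr15:75451691-75451940, minus strand: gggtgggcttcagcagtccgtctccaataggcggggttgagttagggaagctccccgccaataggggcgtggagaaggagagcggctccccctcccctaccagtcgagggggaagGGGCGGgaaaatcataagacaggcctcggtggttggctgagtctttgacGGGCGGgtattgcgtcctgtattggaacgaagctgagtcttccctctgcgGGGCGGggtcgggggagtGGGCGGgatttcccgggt
KAT6B, chr10:74826350-74826599, plus strand: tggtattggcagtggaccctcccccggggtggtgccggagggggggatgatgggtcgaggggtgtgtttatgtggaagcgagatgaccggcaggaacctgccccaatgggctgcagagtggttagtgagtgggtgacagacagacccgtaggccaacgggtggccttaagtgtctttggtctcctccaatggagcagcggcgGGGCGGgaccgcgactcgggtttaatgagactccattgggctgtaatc
TRAF2, chr9:136886266-136886515, plus strand: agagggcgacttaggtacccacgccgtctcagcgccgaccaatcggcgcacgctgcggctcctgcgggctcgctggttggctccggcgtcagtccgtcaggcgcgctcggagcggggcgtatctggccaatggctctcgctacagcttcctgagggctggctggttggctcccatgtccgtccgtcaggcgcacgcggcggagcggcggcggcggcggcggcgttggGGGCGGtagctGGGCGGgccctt
TBL1XR1, chr3:177197483-177197732, minus strand: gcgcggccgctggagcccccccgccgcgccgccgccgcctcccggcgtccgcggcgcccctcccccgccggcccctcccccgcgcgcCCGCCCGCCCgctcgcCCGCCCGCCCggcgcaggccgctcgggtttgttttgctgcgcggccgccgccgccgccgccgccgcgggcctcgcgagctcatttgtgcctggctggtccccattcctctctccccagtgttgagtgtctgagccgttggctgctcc
LOC107984604, chr13:36163887-36164136, minus strand: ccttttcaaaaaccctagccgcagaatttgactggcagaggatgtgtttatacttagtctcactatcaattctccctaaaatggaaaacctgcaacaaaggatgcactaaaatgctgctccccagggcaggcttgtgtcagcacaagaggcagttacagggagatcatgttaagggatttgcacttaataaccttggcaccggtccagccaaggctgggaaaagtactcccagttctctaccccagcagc
LOC107985416, chr20:31572760-31573009, plus strand: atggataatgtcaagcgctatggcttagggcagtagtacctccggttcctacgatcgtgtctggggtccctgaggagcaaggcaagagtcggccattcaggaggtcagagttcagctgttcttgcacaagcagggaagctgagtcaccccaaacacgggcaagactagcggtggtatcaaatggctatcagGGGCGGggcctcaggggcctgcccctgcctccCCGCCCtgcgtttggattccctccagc

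The HNRNPL, LINC00886, KAT6B, LOC107984604 and LOC107985416 stretches lay wholly inside the ARID1B region, and the SIN3A, TRAF2 and TBL1XR1 stretches lay in it for 246, 215 and 81 of their 250 bases. The GC box was counted on both strands, overlapping matches included. It occurred 4 times at SIN3A and at TBL1XR1, 2 times at HNRNPL, LINC00886, TRAF2 and LOC107985416, 1 time at KAT6B and 0 times at LOC107984604. All matches at TBL1XR1 and TRAF2 lay outside the ARID1B region, in the part of the stretch it did not reach. Of the 9 windows at members found in both replicates, 8 held a GC box and 5 held one inside the region. The members overlapped 23 windows in all, some of which overlap each other. A GC box was held by 15 of them (65.2%), against 42.6% of the 35116 windows of the table. This share and those below count a window whether or not the match lay in the ARID1B region. At DCAKD, TBL1XR1 and TRAF2, among others, every GC box lay outside it. G and C made up a median of 64.4% of the bases in the 23 windows and 58% over the table. CCAAT, the box bound by NF-Y, was counted after the sequences had been read, and it lay on either strand in 14 of 23 windows (60.9%) against 32.0% of all windows. It occurred 4 times at KAT6B, 3 times at HNRNPL and SIN3A and 2 times at TRAF2, all inside the region, and not at LINC00886, TBL1XR1, LOC107984604 or LOC107985416. TGANTCA, the AP-1 site, was held by 3 of the 23 windows (6.57% of all windows), and GGAATG, the TEAD site, by 4 (11.9% of all windows). CCGGAAG, an ETS site, was held by 1 (8.52% of all windows), and the NFI palindrome by 0 (0.809% of all windows). These counts describe letters in windows and were not tested.

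HNRNPL encodes a splicing factor that binds CA-rich RNA. Its region (chr19:38849849-38850580) scored 765 in replicate 1 and 1077 in replicate 2, in the authors' peak score, whose scale is not stated. It was level with or above 99.8% of the peaks of each list, and lay 1767 bp inside the gene from its outermost start. The start window it covered belonged to a transcript that begins 2361 bp downstream of that outermost start. SIN3A, the scaffold of a histone deacetylase corepressor, had a region 3766 bp inside from its start with scores of 138 and 194, and the inner start lay 4125 bp downstream of the outermost. KAT6B, a histone acetyltransferase gene, had a region scoring 102 and 131, with an inner start 1664 bp downstream. At TRAF2, an adaptor of TNF receptors, scores were 92 and 128, and at TBL1XR1, a subunit of nuclear receptor corepressor complexes, 36 and 91. The members at the starts of the non-coding genes LOC107984604 and LOC107985416 scored 17 and 88, and 53 and 11.

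The start windows were held unevenly by the replicates. Regions at a start window made up 8 of 160 members found in both replicates (5%, 2.18 to 9.61), 12 of 84 in replicate 2 alone (14.3%, 7.61 to 23.6) and 0 of 57 in replicate 1 alone (upper 95% bound 6.27%). Among regions over 10 kb away the same shares were 1.93%, 4.01% and 0%, the last of 399 regions with an upper bound of 0.920%. The members in replicate 2 alone included inner starts of KDM3A, a histone demethylase (score 82), GBF1, a Golgi exchange factor (100), TUBB, a beta-tubulin (38), SNX12, a sorting nexin (73), and HNRNPUL1, an RNA-binding protein (37). All 12 scored between 23 and 103. The comparison was made after the positions had been seen, so it carries no test. The promoter table covers 79.8% of the protein-coding genes and none on chromosome 8, where 9 members lay, so these counts are lower limits.

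**Figure D1:**
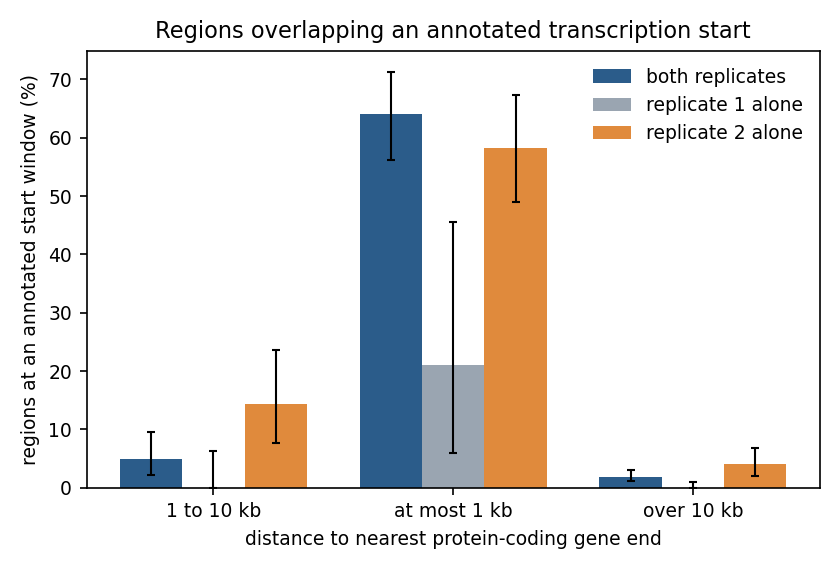
Share of regions (%) that overlap an annotated start window, by distance to the nearest protein-coding gene end, with exact 95% intervals. At 1 to 10 kb, 14.3% of regions in replicate 2 alone and 0% of those in replicate 1 alone overlap one, and at most 1 kb away 58.3% and 21.1% do.

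Whether ARID1B regions were more frequent at this distance than elsewhere was asked by dividing counts by the amount of sequence. At 1 to 10 kb there were 301 regions in 451.1 Mb, or 0.667 per Mb (exact Poisson 95% interval 0.594 to 0.747, counting error only). Beyond 10 kb there were 0.692 per Mb (0.659 to 0.726), and at most 1 kb away 4.20 per Mb (3.74 to 4.71). The density at 1 to 10 kb was thus 0.965 times that beyond 10 kb (0.850 to 1.09), and no excess over distal sequence was detectable. Within the class it was 0.863 per Mb at 1 to 2 kb (56 regions), 0.675 at 2 to 5 kb (113) and 0.603 at 5 to 10 kb (132), with intervals that overlapped from each bin to the next. The part found in both replicates was nearly level over these bins, at 0.370, 0.370 and 0.338 per Mb. The part in replicate 2 alone was 0.339, 0.179 and 0.146 per Mb, and at most 1 kb away it was 1.66. With replicate 2 peaks only, the ratio to distal density was 1.03, and with replicate 1 peaks only 0.853 (0.736 to 0.984).

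**Figure D2:**
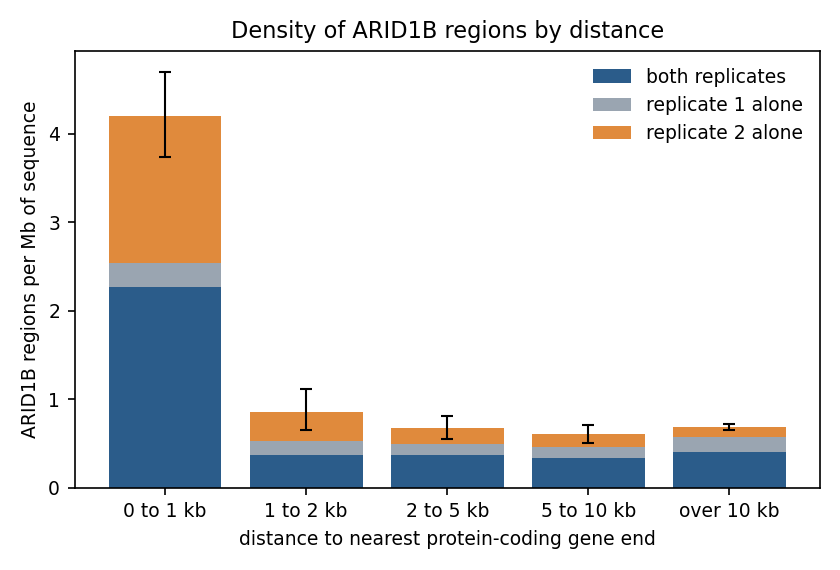
ARID1B regions per Mb of sequence by distance to the nearest protein-coding gene end, stacked by replicate support, with exact Poisson 95% intervals on the total. The density is 4.20 per Mb up to 1 kb and between 0.603 and 0.863 per Mb in the 3 bins from 1 to 10 kb, against 0.692 beyond.

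Gene bodies held 173 of the 301 members (57.5%, 51.7 to 63.1), and the other 128 lay outside every protein-coding gene. Bodies made up 57.7% of the sequence at this distance, so the densities were 0.665 per Mb inside and 0.670 per Mb outside. Both replicates had a peak at 93 of the 173 regions inside (53.8%) and at 67 of the 128 outside (52.3%). Support inside and outside did not differ detectably (odds ratio 1.06, 0.652 to 1.72, with p = 0.816 by a two-sided exact test of Fisher and an adjusted p of 0.957 over 11 such tests).

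The direction of transcription was known for the nearest gene of 238 members. The nearest end was a transcription start for 114 and a transcription end for 124. Upstream of a start lay 44 regions (0.492 per Mb, 0.358 to 0.661) and inside the gene after the start 70 (0.747, 0.582 to 0.944). Inside before the end lay 55 (0.600, 0.452 to 0.781) and downstream of the end 69 (0.803, 0.625 to 1.02). The upstream interval lay below the distal density of 0.692 per Mb, and the distal density lay within the other 3 intervals. Of regions found in both replicates there were 18 upstream and 43 inside after the start, 24 inside before the end and 39 downstream. Replicate support did not differ detectably between the start side (61 of 114, 53.5%) and the end side (63 of 124, 50.8%), with an odds ratio of 1.11 (0.649 to 1.91; Fisher's exact test, adjusted p = 0.957). Start-side regions made up 21 of 49 in replicate 1 alone and 32 of 65 in replicate 2 alone (odds ratio 0.775, 0.343 to 1.74; Fisher's exact test, adjusted p = 0.957).

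**Figure D3:**
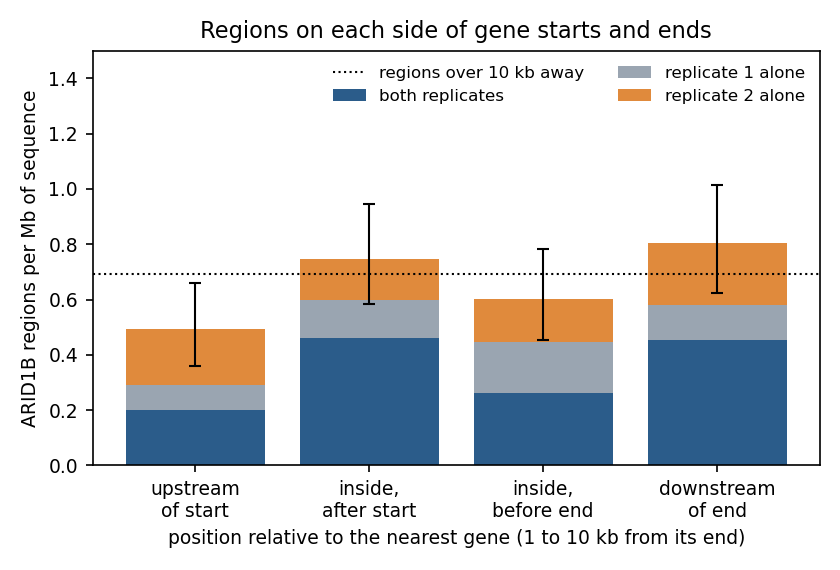
Members per Mb of sequence on each side of gene starts and ends, 1 to 10 kb away, stacked by replicate support with exact Poisson 95% intervals on the total. The upstream side is the lowest at 0.492 per Mb and the downstream side the highest at 0.803, and the dotted line marks 0.692 per Mb for regions over 10 kb away.

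Replicate support and scores were then set against the other distances. Of members 53.2% were found in both replicates (47.3 to 58.9), against 57.3% of all merged regions. The share was 54.1% at gene ends (odds ratio 0.962, 0.690 to 1.34; Fisher's exact test, adjusted p = 0.957) and 58.6% beyond 10 kb (0.803, 0.623 to 1.04; p = 0.0872, adjusted p = 0.240). Members made up 57 of 475 regions in replicate 1 alone (12%) and 84 of 503 in replicate 2 alone (16.7%; odds ratio 0.680, 0.464 to 0.992; Fisher's exact test, p = 0.0448, adjusted p = 0.240). None of these differences passed after adjustment. Scores at or above the median of the list were held by 98 of 218 peaks of the class in replicate 1 and 112 of 245 in replicate 2 (45.7%), against 50.3% and 50.1% of all peaks. Beyond 10 kb these shares were 51.8% and 51.4% (odds ratios 0.760 and 0.795; Fisher's exact test, adjusted p = 0.240 for each).

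**Figure D4:**
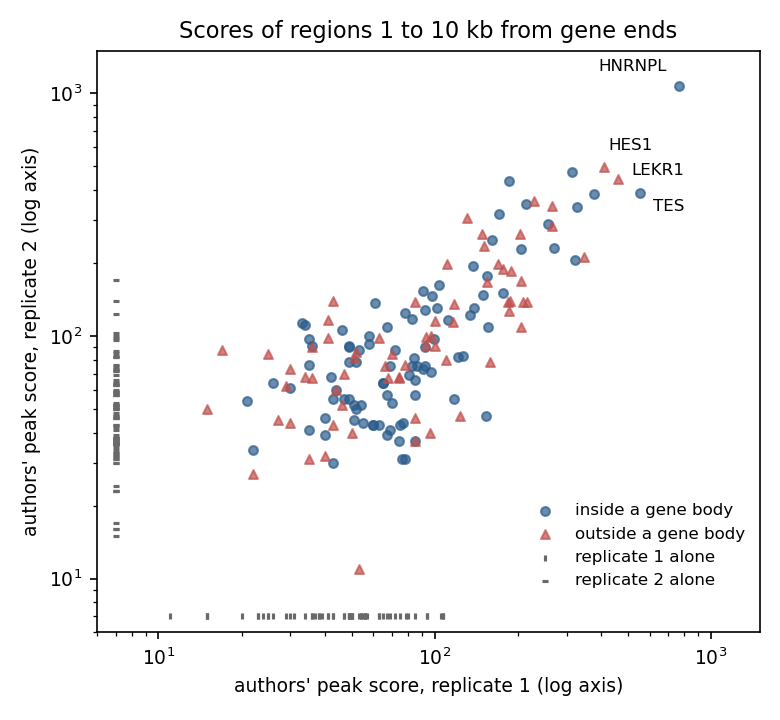
The authors' peak scores of the 301 members in replicate 1 and replicate 2, on log axes. Circles and triangles are the 160 regions found in both replicates, and ticks along the axes are the 57 and 84 regions of 1 replicate, none of which scores above 107 in replicate 1 or 170 in replicate 2.

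Scores of the 160 members found in both replicates had a median of 78 in replicate 1 (quartiles 49 and 138) and of 85 in replicate 2 (55 and 138). Members of 1 replicate were lower, with medians of 49 and 47.5, and narrower, with a median width of 240 bp against 354.5 bp. Regions in both replicates are merged from overlapping peaks, so their greater width follows partly from the merging. The other classes were alike. At gene ends, regions of 1 replicate had median scores of 49 and 47.5 and widths of 253 against 383.5 bp. Beyond 10 kb these were 49 and 51, and 232 against 370 bp. The strongest members in replicate 1 alone were at C1D, an RNA exosome cofactor gene, and ARNT, the partner of hypoxia-inducible factors (each 107). CCKAR, the cholecystokinin A receptor gene, came next (105). The strongest in replicate 2 alone were at ZBTB32, a zinc-finger repressor gene (170), HOXB3 (140) and DLX4, a homeobox gene (123).

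After HNRNPL, the members inside genes that came next by score, at TES, ZNF608, BMF and CLDN14, lay in the stretch that follows the start. TES, which encodes the focal adhesion protein testin, had a region 7514 bp inside from its start at chr7:116218053-116219049 (scores 555 and 390). ZNF608, a zinc-finger gene, had one 7396 bp inside (chr5:124740932-124741428; 376 and 385). BMF, a pro-apoptotic BCL2 family gene, followed at 9711 bp (chr15:40098772-40099168; 314 and 473). Each was level with or above at least 96.8% of the peaks of both lists. CLDN14, a tight-junction claudin gene, had scores of 326 and 339 at 8906 bp, and ATXN1, the gene of the polyglutamine protein ataxin-1, 271 and 231 at 3645 bp. By the lower of a region's 2 percentiles, 6 of the 12 highest-scoring members inside genes lay after the start of their nearest gene. The same held for 43 of all 93 members inside genes found in both replicates, some of them near genes of unknown direction. The 12 were thus close to that share. Toward the other end lay those of SYP, the synaptic vesicle protein synaptophysin (chrX:49190943-49191571; 214 and 349), and NKAIN2, which encodes a partner of the sodium pump (323 and 205). A pair of regions inside SAMD11, 1928 and 3635 bp beyond the end of the neighbouring NOC2L, scored 186 and 434 and 171 and 320. A further one of the 12, in SLC16A5, a gene of the monocarboxylate transporter family, lay 3984 bp upstream of ARMC7 (205 and 228).

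Outside gene bodies, the region with the highest lower percentile lay at the start of the long non-coding RNA gene LINC00886, 8956 bp upstream of LEKR1 (chr3:156816900-156817397; 462 and 445). Next came a region 1933 bp downstream of HES1, a repressor that carries out Notch signals (chr3:194140665-194141120; 409 and 499), with a second one 2651 bp downstream in replicate 2 alone (41). VRK1, a nuclear kinase gene, followed with scores of 266 and 284 at 6875 bp. All 3 were level with or above 94.8% of the peaks of each list. Downstream of ZNF608, 7289 bp past its end, lay a region of 229 and 362. LRRC49 had one 3936 bp downstream (347 and 212), and GABBR2, a subunit of the GABA-B receptor, one 7083 bp downstream (169 and 199). Upstream members lay at LRIG3, a leucine-rich repeat protein gene (4606 bp; 203 and 263), LAMA3, a laminin chain gene (4419 bp; 189 and 185), and NOB1, which encodes a nuclease of ribosome maturation (1672 bp; 155 and 167). Next to genes of unknown direction here lay those of MEOX1, a somite homeobox gene (8166 bp; 176 and 189), and BMERB1 (2635 bp; 206 and 168).

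The class differed from distal regions in how often another annotated gene, not protein-coding, had an end within 1000 bp. This held for 37 of 301 members (12.3%, 8.80 to 16.5) and 117 of 1685 distal regions (6.94%), against 10.3% of all merged regions. The difference passed the test, alone among the 11 (odds ratio 1.88, 1.23 to 2.81; Fisher's exact test, adjusted p = 0.0250). Such ends are themselves more frequent near protein-coding genes: sequence within 1000 bp of one made up 5.53% of the class's sequence and 3.60% of distal sequence. The part of this gradient in the difference was not tested. Among regions at most 1 kb from a protein-coding gene end the share was higher than among members, at 82 of 303 (27.1%). By support, it held for 25 of 160 members in both replicates (15.6%), 2 of 57 in replicate 1 alone (3.51%) and 10 of 84 in replicate 2 alone (11.9%). Among distal regions these shares were 7.70%, 2.76% and 10.0%. The call ended in Fisher's exact test when the class was narrowed to at most 5000 bp (11.8%, adjusted p = 0.211) or begun at 2000 bp (12.2%, adjusted p = 0.0693). The genes reached were of the class long non-coding RNA for 23 members, small nuclear RNA (snRNA) for 8, pseudogene for 5 and microRNA for 1.

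The snRNA genes included copies of U1, the RNA that recognises the 5′ splice site. RNVU1-14, RNVU1-15 and RNVU1-27, variant U1 genes beside NBPF genes on chromosome 1, each lay under a region with scores of 266 and 342, 131 and 306, and 148 and 264. RNU1-3, a U1 gene, had 50 and 40, and RNU5F-1, a U5 gene, 83 and 118. LOC124904122, annotated as an snRNA gene inside TEX14, had 258 and 290, and a further pair of annotated snRNA genes had regions in replicate 2 alone (16 and 37). U1 genes have near-identical copies, so their scores depend on how reads that match several copies were placed. The microRNA gene was MIR615, 77 bp from a region in the HOXC cluster that scored 139 and 131.

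Genes nearest to members were counted in 26 gene lists. HOX genes, the homeobox genes that pattern the body axis, stood first with 9 of 39 (23.1%), against 1.39% of all protein-coding genes. Only 3 of them, HOXA5, HOXC4 and HOXC5, had a region found in both replicates (7.69%, against 0.772%). With replicate 1 peaks only the count was 3 of 39. HOX genes stand close together, and of 9 regions in the HOXA cluster and 4 in HOXC none, and of 8 in HOXB only 1, lay over 10 kb from a gene end. The 11 members nearest to a HOX gene were 4 of the HOXA cluster, 3 of HOXB and 4 of HOXC, and HOXD had no region of any distance class. Of the 11, 4 were found in both replicates, 7 in replicate 2 alone and 0 in replicate 1 alone. The strongest was inside HOXC4 (chr12:54052115-54052578; 161 and 250), and the MIR615 region was nearest to HOXC5, which had a second member of 35 and 41. HOXA5 had 43 and 55, and in replicate 2 alone lay those at HOXB9 (85), HOXA3 (a region of 83 and another of 63), HOXC6 (76), HOXA11 (69) and HOXB4 (57).

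**Figure D5:**
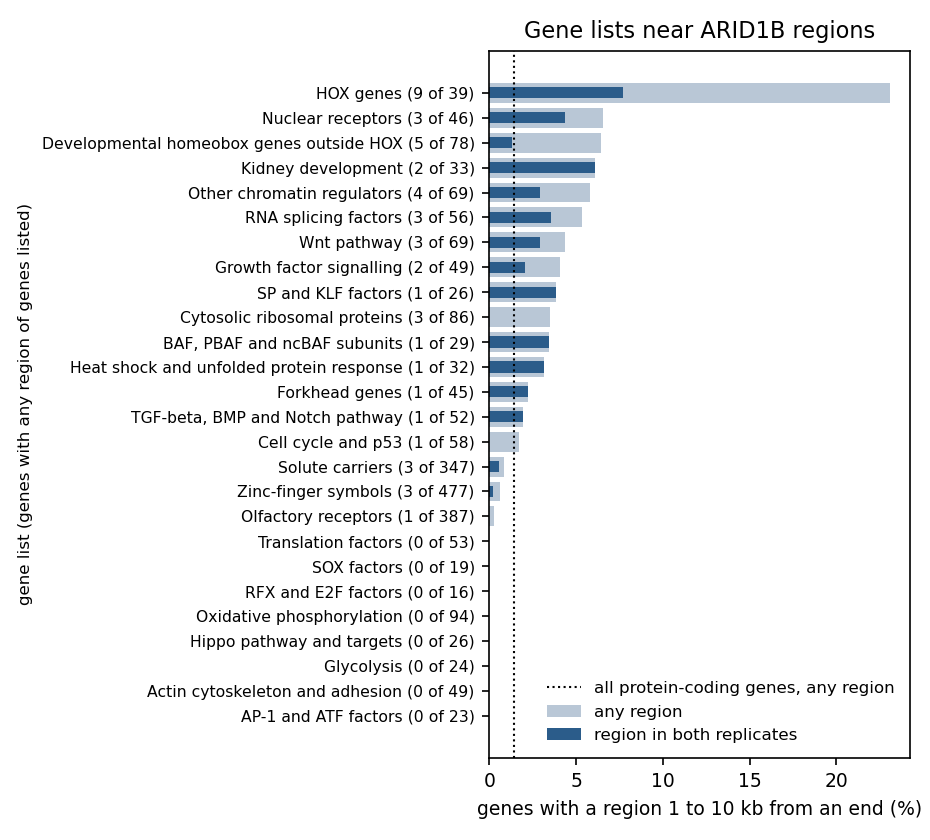
Share of each gene list (%) whose genes are nearest to a region 1 to 10 kb from an end, with the share for regions found in both replicates as the darker inner bar. HOX genes reach 23.1% and the dotted line marks 1.39% of all protein-coding genes.

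Of developmental homeobox genes outside the HOX clusters 5 of 78 were reached (6.41%). OTX1 and PBX3 were reached in replicate 1 alone (75 and 30), and DLX4 and PITX3 in replicate 2 alone (123 and 100). The PITX3 region also lay at the GBF1 start. Nuclear receptors had 3 of 46 (6.52%): NR6A1, an orphan receptor gene (83 and 75), NR2F1, a neural crest and brain regulator (30 and 44), and in replicate 1 alone NR3C1, the glucocorticoid receptor gene (54). The list written for kidney development had 2 of 33 (6.06%). Of these 2 genes, 1 was MEOX1, described above as a somite homeobox gene, which had 3 members within 14.7 kb. The share thus does not describe kidney genes alone.

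Of chromatin regulators outside the BAF complex 4 of 69 were reached (5.80%). Next to KAT6B and SIN3A these were KDM3A (82) and KMT2E, a SET-domain gene (63), both in replicate 2 alone. The sole gene among 29 BAF, PBAF and ncBAF subunits was ARID1A, the alternative to ARID1B in the complex. It had 3 members within 5.99 kb inside the gene before its end, with 21 and 54 at the one found in both replicates and 59 and 48 at the others, in replicate 2 alone. Wnt pathway genes had 3 of 69, namely TCF7L2, a nuclear effector (92 and 90), TLE3, a corepressor (41 and 98), and in replicate 2 alone SFRP2, a secreted inhibitor (52). RNA splicing factors had 3 of 56, namely HNRNPL, RBM25 (93 and 99) and, in replicate 2 alone, HNRNPA1 (36). Each of these shares rests on 1 to 4 genes.

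Single genes were reached in the lists named next, beside 1.39% of all protein-coding genes. KLF6 was 1 of 26 SP and KLF factors (3.85%), with scores of 49 and 91. HES1 was 1 of 52 TGF-beta, BMP and Notch genes (1.92%), and FOXO3 (52 and 78) was 1 of 45 forkhead genes (2.22%). HSPA1B (25 and 84) was 1 of 32 heat shock and unfolded protein response genes (3.1%). CCND3 (63 in replicate 2 alone) was 1 of 58 cell cycle and p53 genes (1.72%). Each of these shares rests on 1 gene and was not tested. Growth factor signalling had 2 of 49, MET, a receptor kinase (52 and 86), and DUSP1, a phosphatase (24 in replicate 2 alone). Cytosolic ribosomal proteins had 3 of 86, RPL3, RPL23A and RPSA, and none of their regions was found in both replicates by the overlap rule. At RPSA each replicate had a region that did not overlap the other, 1728 bp downstream in replicate 1 and 1448 bp in replicate 2. Zinc-finger symbols had 3 of 477 (0.629%), solute carriers 3 of 347 (0.865%) and olfactory receptors 1 of 387 (0.258%). These shares are below that of all protein-coding genes, but rest on 1 to 3 genes each and were not tested. No gene was reached in 8 lists, beside 1.39% of all protein-coding genes. Among them were AP-1 and ATF factors (0 of 23), Hippo genes (0 of 26) and translation factors (0 of 53). Oxidative phosphorylation (0 of 94) and actin and adhesion genes (0 of 49) were others. At that share, a count of 0 in lists this small does not set them apart from other genes.

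A few genes drew several members. In all 22 genes were nearest to 2 or more members and 5 to 3 or more. SOBP had 4 spread over 174 kb, of which 1 was found in both replicates. ZNF608 had 3, all found in both, the third with 55 and 44 at 1320 bp inside from the start. BMF, ATXN1, NEDD4, a ubiquitin ligase gene, and NRP1, a semaphorin receptor gene, each had 2, all found in both replicates. The second of ATXN1 scored 177 and 151, and that of BMF 46 and 106. Those of NEDD4 scored 85 and 138 and 116 and 114, and those of NRP1 30 and 61 and 153 and 47. Per 100 protein-coding genes, the highest rates were 2.94 on chromosome 21 (7 members) and 2.73 on chromosome 10 (20 members). The lowest were 0.308 on chromosome 11 (4 members) and 0.372 on chromosome 20 (2 members). Apart from chromosome 10, these extremes rest on few members. These counts follow from the positions alone and were not tested.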

How the data were processed

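ARID1B ChIP-seq peak lists of 2 replicates from HEK293FRT cells were used. The input sample is not analysed here. The tools named per the submitters' processing notes are MACS2 2.1.2, Bowtie2 2.3.4.1 and bcl2fastq 2.20.0.422, with the build hg38. For their settings, the peak threshold, duplicates and use of the input, nothing is given in the sources used here. The authors deposited 1 list per replicate with a whole-number score per peak of unstated scale, used here for description and for ranks inside 1 list. The percentile of a peak is the share of its list scoring at or below it.

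Starts were converted to count from 1. Genes came from a RefSeq table (GRCh38.p14), of which 58961 genes on the assembled chromosomes were kept, and direction came from the promoter table. Distances ran from the region's nearer edge. Sequence at each distance was counted exactly over the annotated span of each chromosome. Shares carry exact Clopper-Pearson intervals, and intervals cover counting error only. Fisher's exact tests (two-sided) were adjusted over 11 by Benjamini-Hochberg at 0.05, with scipy 1.17.1 on Python 3.11. On simulated data, only a planted difference in replicate support between distance classes was checked. The other tests, with that on ends of other genes, were not checked in this way. Regions are not replicates, so these tests describe these lists.

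Members, gene lists and motifs were chosen with earlier results of these data known. Named were the first 12 regions in both replicates inside and outside genes by the lower percentile, the first 3 of each replicate alone, up to 4 genes of each list and the regions nearest the limits. The genes with several members, at start windows or at small RNA genes, and the HOX genes beyond 4, were named after their values were seen. A gene counted in the lists is not reported here by name.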

Additional observations from a re-analysis of the deposited data

How the results depend on the processing

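The alternatives were 50% reciprocal overlap, centres within 200 bp, peaks at or above the median score, distance from the region's centre, windows of 1000 to 5000 and 2000 to 10000 bp, and 1 replicate at a time. No paired analysis was possible because the labels hold a single ChIP group with replicates. Of 11 Fisher tests the only one that passed concerned ends of other genes: its odds ratio was 1.80 or more in every setting run, and with 1 replicate left out ran from 1.86 to 2.13 (unadjusted). Fisher's exact test no longer passed at 1000 to 5000 bp (1.80, adjusted p = 0.211) or 2000 to 10000 bp (1.87, adjusted p = 0.0693). Odds ratios that passed in no setting crossed 1 as follows. Support against gene ends came to 1.05 with reciprocal overlap, 1.00 from the centre and 1.06 at 2000 to 10000 bp. Start against end side came to 0.997 with reciprocal overlap, 0.968 by centres and 0.872 among peaks at or above the median. Inside against outside came to 0.712 among those peaks and 0.721 at 2000 to 10000 bp. The high-score share against gene ends came to 1.04 from the centre (replicate 1 list), and to 1.04 and 1.06 at 1000 to 5000 bp. The class held 7.38% of regions at 1000 to 5000 bp and 10.7% at 2000 to 10000 bp, and 12.2% to 13.5% with 1 replicate left out. HOX genes reached numbered 5 at 2000 to 10000 bp, and 3 to 9 with 1 replicate left out; this count was added after the data were seen. The density ratio to distal sequence ran from 0.853 to 1.05. Of 24 named regions found in both replicates, 23 stayed so with centres within 200 bp. The exception was the NOB1 region, the widest member at 1287 bp, which overlaps the pseudogene NONOP1. Depth is unknown, so weak regions of 1 replicate cannot be told from absence in the other.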
